A study of Homo sapiens with 8 samples.

Results

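NPPC encodes the precursor of C-type natriuretic peptide. It was represented by 1 probe set (16909551), found by its gene symbol, of 14884 gene symbols measured on Affymetrix whole-transcript arrays. The gene was chosen by its measured log2 values in the groups described here, with a large difference in LX2 and almost none in HepG2. Its own levels and differences are therefore a description and carry no test. The cells were LX2, a human line of hepatic stellate cells kept in 2% serum, and HepG2, a human hepatocellular carcinoma line kept in 10% serum. Cultures of both lines were exposed for 48 h to 400 nM CM272, an inhibitor of G9a, a histone methyltransferase, and of DNMT1, which methylates DNA. Control cultures had the vehicle (0.1% DMSO) for the same time. Of the 8 arrays, 2 were LX2 control and 2 LX2 CM272, and HepG2 had 2 of each kind, so n is 2 arrays for every value of the 4 groups. Line and serum level went together and cannot be told apart.

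C-type natriuretic peptide is a local, short-range hormone, made by endothelial cells, by cartilage of the growth plate and in the brain. It acts through NPR2, a receptor whose inner part is a guanylyl cyclase that makes cyclic GMP. NPR1 is the related cyclase receptor for the heart peptides encoded by NPPA and NPPB, and NPR3 binds all natriuretic peptides and mainly clears them. Stellate cells of the liver are known to respond to C-type natriuretic peptide, which slows their growth and contraction.

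The promoter windows of NPPC and of NPPA, the gene of atrial natriuretic peptide, are shown because CM272 acts on a DNA methyltransferase that works on CG dinucleotides, and the related genes differ in their number. Each window holds 250 bases before and 50 after the gene's start, from RefSeq (build GRCh38.p14), written from 5' to 3' on the gene's strand with every CG in capitals. The NPPC window lies on the minus strand at chr2:231926347-231926646 and the NPPA window on the minus strand at chr1:11847734-11848033. They include a short piece of each transcript's first exon.
NPPC: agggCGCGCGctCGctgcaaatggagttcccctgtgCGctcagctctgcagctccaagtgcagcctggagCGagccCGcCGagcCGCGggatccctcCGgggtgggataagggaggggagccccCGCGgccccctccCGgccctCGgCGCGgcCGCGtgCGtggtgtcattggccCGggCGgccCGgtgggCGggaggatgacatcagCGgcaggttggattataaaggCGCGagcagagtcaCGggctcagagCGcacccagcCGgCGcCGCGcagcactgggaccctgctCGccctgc
NPPA: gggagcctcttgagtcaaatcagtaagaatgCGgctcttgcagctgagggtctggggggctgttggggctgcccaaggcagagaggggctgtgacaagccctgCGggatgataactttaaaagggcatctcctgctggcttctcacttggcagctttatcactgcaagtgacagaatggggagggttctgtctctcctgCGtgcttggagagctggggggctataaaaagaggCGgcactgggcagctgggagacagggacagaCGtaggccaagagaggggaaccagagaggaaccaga

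The NPPC window held 34 CG dinucleotides and was 73% G or C. Of 35116 RefSeq windows of the same length, 15.6% held at least as many CG, and the median window held 14. The NPPA window held 5 CG (70.4% of windows held at least as many), the NPR1 window 23 and the NPR2 window 31. NPR3 had 2 windows, with 2 and 18 CG. On either strand, the GC box GGGCGG, which contains a CG, matched 2 times in the NPPC window and in 45.0% of all windows. The TATA sequence TATAAA matched 1 time each in the NPPC and NPPA windows and in 11.5% of all windows. The palindrome TGACGTCA, a cyclic AMP response element, matched neither, and was found in 1.85% of windows. Such matches are a description of letters. Methylation was not measured here.

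NPPC transcripts were higher in LX2 with CM272 than in any other group. The NPPC log2 expression value was 4.65 and 4.36 in the LX2 control arrays and 7.05 and 6.89 in the LX2 CM272 arrays. Both treated arrays lay above both controls, as for 23.5% of all tested genes, by a gap of 2.24 log2 between the nearest arrays. The means were 4.51 ± 0.20 (SD, n = 2) in control and 6.97 ± 0.12 with CM272. The NPPC difference of 2.46 log2 is 5.52-fold, in which more cells with the transcript and more transcript per cell cannot be told apart. It was the difference ranked 12 from the highest among 12239 tested genes, between GTF2B (2.64), a general transcription factor, and OASL (2.38), an interferon-induced antiviral protein. In LX2 21 genes were higher with CM272 by log2 2 or more, and the median difference over all tested genes was -0.02. Leaving out 1 array at a time gave NPPC differences from 2.32 to 2.61 log2, which follows from the gap between the arrays of a group and is no check of stability.

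In HepG2 the NPPC value was 4.42 and 4.90 in the control arrays and 4.56 and 4.77 in the CM272 arrays. The treated arrays lay between the control arrays, so the groups overlapped. The HepG2 means were 4.66 ± 0.34 (SD) in control and 4.67 ± 0.15 with CM272, a difference of 0.01 log2. It ran from -0.23 to 0.25 when 1 array was left out, a range that follows from the gap between the arrays of a group.

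In order of level, LX2 CM272 stood highest for NPPC. HepG2 CM272, HepG2 control and LX2 control followed, and they did not differ beyond their spread, since all 6 of their arrays lay between 4.36 and 4.90. The control lines differed by 0.15 log2 (HepG2 minus LX2), less than the span of 0.48 between the HepG2 control arrays, and by 0.46 under quantile normalization. The CM272 change in HepG2 minus that in LX2 was -2.46 log2 for NPPC.

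**Figure D1:**
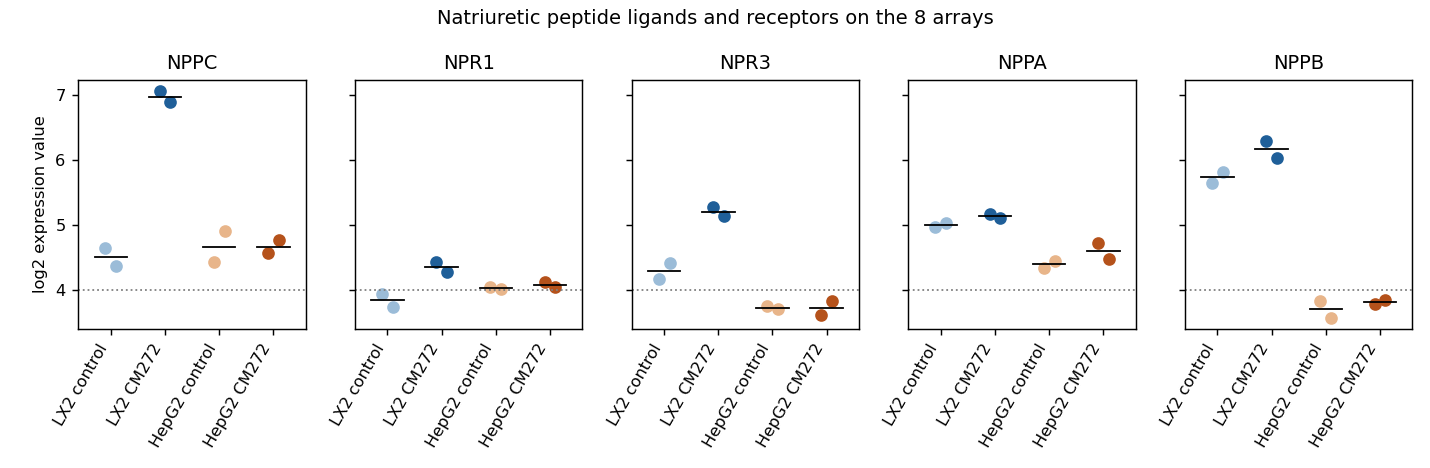
Log2 expression values (vertical axis) of NPPC, the receptor genes NPR1 and NPR3 and the peptide genes NPPA and NPPB on each of the 8 arrays, by group. Points are arrays, short lines are group means and the dotted line is the log2 value of 4 used as brightness filter. NPPC stands at 6.89 and 7.05 in LX2 CM272 and between 4.36 and 4.90 elsewhere.

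**Figure D2:**
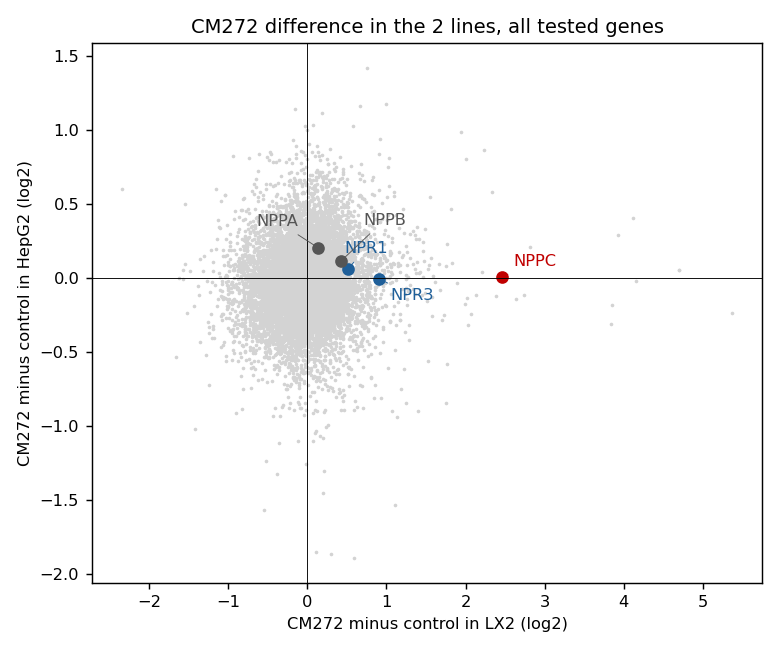
Difference between CM272 and control in LX2 (horizontal, log2) against that in HepG2 (vertical, log2) for all 12239 tested genes in grey, with NPPC and its relatives marked. NPPC lies at 2.46 and 0.01, and NPR3 at 0.91 and -0.01.

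The receptors of the natriuretic peptides were compared next, in the same limma fit over all genes. NPR3 (probe set 16983765), the clearance receptor gene, rose in LX2 with CM272. Its log2 value was 4.16 and 4.42 in LX2 control and 5.27 and 5.13 in LX2 CM272. The treated arrays lay above both controls, as for 23.5% of all tested genes. The NPR3 rise was 0.91 log2 (SE 0.15, 1.88-fold, limma adjusted p = 0.0110), in a comparison where 8.42% of all genes passed, 3.79% upward and 4.63% downward. The call rested on both LX2 control arrays and on the shared spread. NPR3 rose by 0.78 without LX2 control replicate 1 (limma adjusted p = 0.112), by 1.04 without LX2 control replicate 2 (adjusted p = 0.0774) and by 0.91 with each line fitted alone (adjusted p = 0.0575).

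In HepG2 NPR3 was dim, at 3.76 and 3.70 in control and 3.61 and 3.83 with CM272, all under the brightness filter of 4. The NPR3 difference there was -0.01 log2 (SE 0.15, limma adjusted p = 0.993). The change in HepG2 minus that in LX2 was -0.92 (SE 0.22) and did not pass (limma adjusted p = 0.0771, in a comparison where 1.18% of genes passed). It passed without LX2 CM272 replicate 2 (-0.99, limma adjusted p = 0.0414), so the outcome of this test changed with 1 array. Untreated HepG2 had less NPR3 than untreated LX2 (-0.56, SE 0.15, limma adjusted p = 0.00987). The call between lines was lost under quantile normalization (-0.29, adjusted p = 0.130) and without LX2 control replicate 2 (-0.44, adjusted p = 0.0962) or HepG2 control replicate 2 (-0.54, adjusted p = 0.0594).

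NPR1 (probe set 16671187), the receptor gene for the heart peptides, was near the filter in every group. It read 3.94 and 3.74 in LX2 control and 4.43 and 4.28 in LX2 CM272, and the groups did not overlap, as for 23.5% of all tested genes with higher treated arrays. The NPR1 difference of 0.51 log2 (SE 0.14) did not pass in limma (adjusted p = 0.0542), and passed without LX2 CM272 replicate 2 (0.58, adjusted p = 0.0300). In HepG2 NPR1 read 4.04 and 4.01 in control and 4.12 and 4.04 with CM272, a difference of 0.06 (SE 0.14, limma adjusted p = 0.922). The change in HepG2 minus that in LX2 was -0.45 for NPR1 (SE 0.20, limma adjusted p = 0.276). NPR1 differed by 0.18 between the untreated lines (SE 0.14, limma adjusted p = 0.294), and was higher in HepG2 under quantile normalization (0.45, adjusted p = 0.0175). For NPR2, the cyclase receptor of C-type natriuretic peptide, 0 probe sets carried the symbol in the annotation used here, so its level is not analysed here.

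The other peptide genes, NPPB and NPPA, did not pass the test with CM272 in either line. NPPB (probe set 16681806), the gene of B-type natriuretic peptide, read 5.65 and 5.81 in LX2 control and 6.29 and 6.02 in LX2 CM272. The treated arrays were the higher ones, as for 23.5% of all tested genes. The NPPB difference of 0.43 (SE 0.16) missed the threshold in limma (adjusted p = 0.128). It passed without LX2 CM272 replicate 2 (0.56, adjusted p = 0.0466). In HepG2 NPPB read 3.83 and 3.58 in control and 3.78 and 3.85 with CM272, all under the filter (difference 0.11, SE 0.16, limma adjusted p = 0.842). The NPPB change in HepG2 minus that in LX2 was -0.31 (SE 0.22, limma adjusted p = 0.511). Untreated LX2 had more NPPB than untreated HepG2, with HepG2 lower by 2.03 log2 on the deposited scale (-2.03, SE 0.16, limma adjusted p = 3.15e-06) and at -1.71 under quantile normalization.

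NPPA (probe set 16681799) read 4.96 and 5.03 in LX2 control and 5.17 and 5.10 in LX2 CM272, and 4.34 and 4.45 in HepG2 control and 4.72 and 4.47 in HepG2 CM272. The treated arrays were the higher ones in both lines, by little. In LX2 23.5% of all tested genes were separated in this way, and the share in HepG2 was not computed. Its CM272 differences were 0.14 in LX2 (SE 0.14, limma adjusted p = 0.599) and 0.20 in HepG2 (SE 0.14, limma adjusted p = 0.635), with 0.06 between them (SE 0.20, limma adjusted p = 0.913). NPPA was lower in untreated HepG2 than in LX2 (-0.60, SE 0.14, limma adjusted p = 0.00532), a call lost under quantile normalization (-0.27, adjusted p = 0.134).

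Beyond ligands and receptors, a list of 47 natriuretic peptide and cyclic GMP genes (NPPC left out) described the rest of the pathway. It held 24 genes with a probe set, of which 20 were bright enough to test. OSTN, a ligand of the clearance receptor, GUCY2C, PLN and CNGA1 were too dim. The cyclic GMP-dependent kinases PRKG1 and PRKG2, the soluble guanylyl cyclase subunits and the phosphodiesterase PDE5A had no probe set with their symbol in the annotation used here, so the list covers the pathway in part.

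In LX2 with CM272 1 of the 20 genes rose (NPR3) and 1 fell, against 8.42% of all tested genes called, and the list's median difference was 0.02 beside -0.02 over all genes. The fall was in IDE, insulin-degrading enzyme, a protease that also cleaves natriuretic peptides. IDE read 8.61 and 8.65 in LX2 control and 7.92 and 8.23 with CM272, so that the treated arrays lay apart from each other but below both controls, as for 28.6% of all tested genes. It fell by 0.56 log2 (SE 0.15, limma adjusted p = 0.0474), and that call passed in 4 of 16 alternative settings only. Without LX2 CM272 replicate 1 the IDE difference was -0.40 (limma adjusted p = 0.0941) and without replicate 2 it was -0.71 (limma adjusted p = 0.0117). Without LX2 control replicate 1 or 2 it was -0.58 and -0.54 (limma adjusted p = 0.206 and 0.259). VASP, an actin regulator that cyclic GMP-dependent kinase phosphorylates, read 7.65 and 7.69 in control and 8.70 and 8.03 with CM272 (difference 0.70, SE 0.20, limma adjusted p = 0.0632). It passed without LX2 CM272 replicate 2 (1.03, limma adjusted p = 0.0065). Without that array more genes of the list passed, and more did over all genes too.

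Of the tested peptidases and convertases around the natriuretic peptides, only IDE passed in LX2 with CM272. MME, neprilysin, the main enzyme that degrades natriuretic peptides, differed by -0.26 in LX2 (SE 0.14, limma adjusted p = 0.294). FURIN, which cuts the NPPC precursor, differed by 0.20 (SE 0.15, limma adjusted p = 0.449). In HepG2 0 of the 20 genes passed limma with CM272, where 0.00817% of all genes passed (2 of the 20 had an unadjusted p under 0.05). The widest HepG2 differences were DPP4, a dipeptidyl peptidase (0.53, SE 0.18, limma adjusted p = 0.323), and ECE1, endothelin-converting enzyme (0.49, SE 0.16, limma adjusted p = 0.310). For the difference of the CM272 effect between lines 0 of 20 passed limma, beside 1.18% of all genes that passed (5 of the 20 had an unadjusted p under 0.05). The count that passed changed without LX2 CM272 replicate 2, as calls over all genes did with an array left out. The widest were VASP (-0.98, SE 0.28, limma adjusted p = 0.122) and NPR3. Shares of all genes at an unadjusted p under 0.05 were not computed, so unadjusted counts here and below cannot be set against one.

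**Figure D3:**
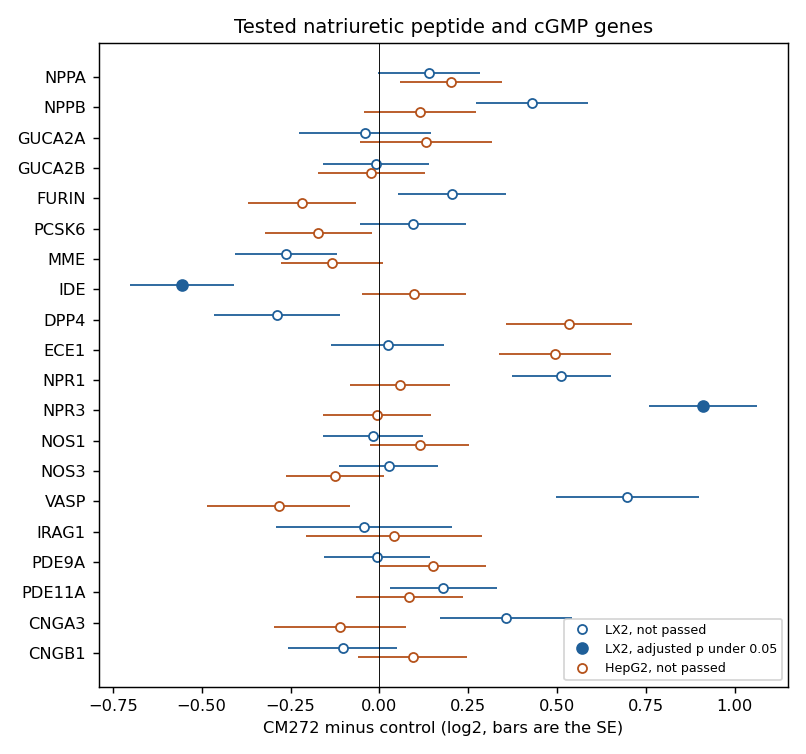
Difference between CM272 and control (horizontal, log2) of the 20 tested natriuretic peptide and cyclic GMP genes, LX2 in blue and HepG2 in orange. Bars are the SE from the fit and filled points passed an adjusted p under 0.05: NPR3 at 0.91 and IDE at -0.56, both in LX2.

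Between the untreated lines 14 of the 20 pathway genes passed, 7 higher and 7 lower in HepG2. In that comparison 58.1% of all tested genes passed, 17.7% higher and 40.5% lower, with a median difference of -0.27 over all genes. Under quantile normalization the median was 0.05 and the share of calls that were higher went from 30.4% to 50.7%. Higher in HepG2 were DPP4 (3.37), PDE11A, a phosphodiesterase (2.81), the convertase PCSK6 (2.44), the uroguanylin gene GUCA2B (1.51), FURIN (1.35), NOS3, an endothelial type of nitric oxide synthase (0.90), and VASP (0.54). All 7 passed under quantile normalization too, but the VASP call passed in 8 of 15 alternative settings only. It was lost without any 1 of the control arrays of either line, without either HepG2 CM272 array and with no filter (limma adjusted p up to 0.152). Lower in HepG2 were MME (-6.33), NPPB, ECE1 (-1.05), NPPA, NPR3, NOS1, a neuronal type of nitric oxide synthase (-0.53), and the guanylin gene GUCA2A (-0.52). PDE11A and GUCA2B were under the filter of 4 on every LX2 array, and MME, NPPB and NPR3 on every HepG2 array. Those calls are on genes tested only through the line where they are high. Under quantile normalization NOS1 (-0.22, limma adjusted p = 0.242) and GUCA2A (-0.18, adjusted p = 0.463) no longer passed, as for NPPA and NPR3. The GUCA2A call passed in 8 of 14 alternative settings and that of NOS1 in 11 of 14. The widest that did not pass were IRAG1, a kinase substrate (-0.35, SE 0.25, limma adjusted p = 0.250), and CNGA3, a cyclic nucleotide-gated channel (0.34, SE 0.19, limma adjusted p = 0.149).

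MME differed most between the lines among the 20 genes. It read 9.24 and 9.23 in LX2 control and 8.89 and 9.06 with CM272, against 3.01 and 2.80 in HepG2 control and 2.71 and 2.84 with CM272. LX2 thus held transcripts of the degrading enzyme in both conditions, whereas HepG2 lay under the filter.

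Of 10 signals and factors reported to act on NPPC, such as TNF and TSC22D1, 3 had a probe set with their symbol, and all 3 were tested. In LX2 with CM272 1 of the 3 passed, with a fall, where 8.42% of all tested genes passed and 4.63% passed downward. It was FGF2, a fibroblast growth factor. It read 10.77 and 10.79 in control and 9.70 and 9.69 with CM272, a fall of 1.08 log2 (SE 0.15, limma adjusted p = 0.0054) that kept its direction in all 16 alternative settings and passed in 14. The call was lost without LX2 control replicate 1 (-1.09, limma adjusted p = 0.0616) and without LX2 control replicate 2 (-1.07, adjusted p = 0.0833). TNF (0.18, SE 0.17, limma adjusted p = 0.561) and VEGFA (-0.18, SE 0.20, limma adjusted p = 0.628) did not pass in LX2.

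The genes next to NPPC on chromosome 2 were compared with it. Of the 5 genes with a probe set on either side, by their order in RefSeq, 8 were tested and MIR1471 and MIR562 were too dim. In LX2 0 of the 8 passed limma with CM272 (1 at an unadjusted p under 0.05), beside 8.42% of all genes, with differences from -0.69 to 0.23 log2. In HepG2 0 passed limma (0 at an unadjusted p under 0.05), beside 0.00817% of all genes. With 8 genes, the counts that passed are near these shares, and no share over all genes was computed for the unadjusted counts. The nearest tested gene on one side was DIS3L2, an RNA exonuclease, at -0.17 in LX2 (SE 0.14, limma adjusted p = 0.509), and on the other COPS7B, a signalosome subunit, at 0.03 (SE 0.17, limma adjusted p = 0.929). The widest was TIGD1, a gene derived from a transposon, at -0.69 in LX2 (SE 0.20, limma adjusted p = 0.0602). It passed without LX2 CM272 replicate 2 (-0.98, adjusted p = 0.0103). The others were NCL, nucleolin (0.23), NMUR1, a neuromedin U receptor (0.12), TEX44 (-0.20), ECEL1, an endopeptidase (0.13), and EIF4E2, a cap-binding protein (-0.24). Between the untreated lines 5 of the 8 passed, beside 58.1% of all genes.

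**Figure D4:**
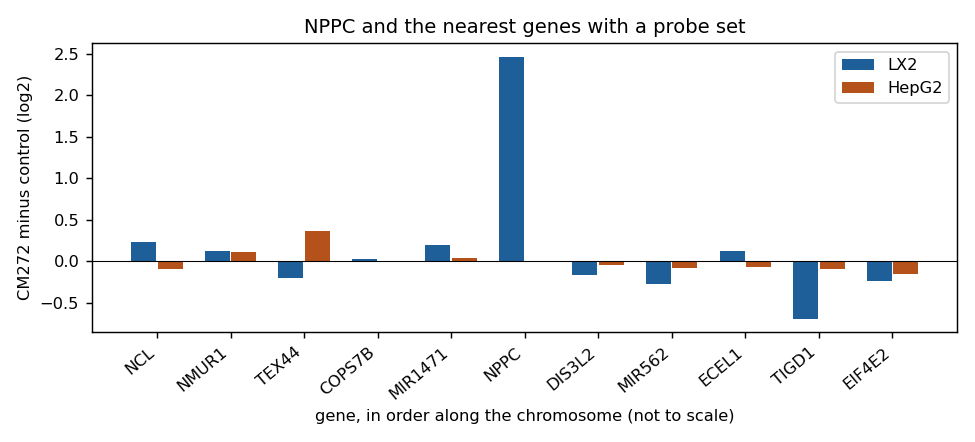
Difference between CM272 and control (vertical, log2) for NPPC and the 5 genes with a probe set on either side of it, in order along the chromosome with distances not to scale. Bars are LX2 (blue) and HepG2 (orange), and NPPC at 2.46 in LX2 stands above neighbours that range from -0.69 to 0.23.

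The genes most like NPPC in pattern were found by Pearson's r over the 8 arrays among 4692 tested genes whose group means spanned at least 1 log2. The arrays share 1 large step, LX2 CM272 against the rest, so a high r mostly says that a gene takes the same step. The 8 highest were FOXJ1, a factor of motile cilia (r = 0.983), ZNF280A, a zinc finger gene (0.981), FOSB, a subunit of AP-1 (0.980), and DKK2, a Wnt antagonist (0.978). GCDH, a mitochondrial dehydrogenase (0.976), HEXIM1, an inhibitor of the elongation factor P-TEFb (0.972), RXFP3, a relaxin-3 receptor (0.970), and TEX14, a protein of germ cell bridges (0.970), came next.

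Their LX2 differences ran from 1.05 log2 for GCDH to 5.37 for TEX14, with NPPC at 2.46 between them. HEXIM1 and FOSB each had another probe set, dimmer on average, with a smaller difference in size. That of HEXIM1 was at -0.36 in LX2 (limma adjusted p = 0.416), against 1.62 for the brighter probe set, so the direction for HEXIM1 depended on the probe set. That of FOSB was at 0.88 (limma adjusted p = 0.0253), against 4.16. FOXJ1, the closest, read 5.71 and 5.46 in LX2 control, 6.83 and 6.62 in LX2 CM272, 5.34 and 5.53 in HepG2 control, and 5.54 and 5.53 in HepG2 CM272. Like NPPC, it was high in the LX2 CM272 arrays and overlapped between groups in HepG2. The lowest r belonged to METTL9, a methyltransferase (-0.963), KCTD20 (-0.960) and IFT88, an intraflagellar transport protein (-0.958), which were lower in LX2 CM272 than in LX2 control by 0.94 to 1.10 log2. IFT88 read 6.31 and 6.27 in LX2 control and 4.97 and 5.42 with CM272.

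**Figure D5:**
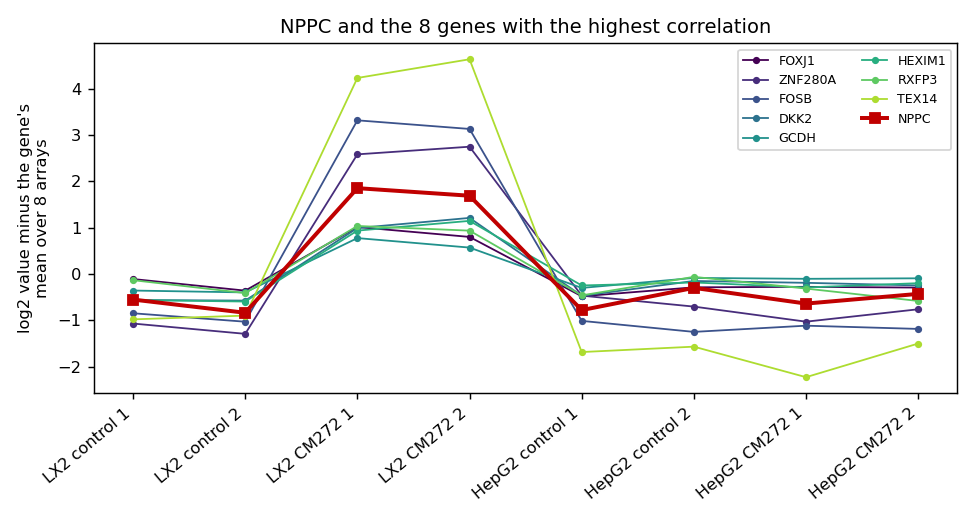
Log2 values minus each gene's own mean over the 8 arrays (vertical) for NPPC (red squares) and the 8 genes with the highest Pearson's r to it. Arrays are on the horizontal axis and lines only join the points of a gene. All are high in both LX2 CM272 arrays, with r from 0.970 to 0.983.

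The arrays bear on these values as follows. Array medians ran from 4.19 to 4.54. Of 14884 genes, 269 differed by over log2 1 between the LX2 CM272 arrays, against 41 between the LX2 control arrays. For NPPC the same arrays differed by 0.16. Of the hepatocyte markers 12 of 16 had a probe set. All 12 were higher in HepG2 than in LX2 control, by 2.13 to 10.4 log2, where 17.7% of all tested genes were called higher. Of the 12, 3 exceeded 4 on both LX2 control arrays and 4 on both LX2 CM272 arrays. Most were thus tested only through HepG2, where they are high. Of 16 stellate and fibroblast markers 6 had a probe set and 5 were tested. VIM, LOX, TAGLN and THY1 were higher in LX2, as were 40.5% of all tested genes, and VIM was under 4 on every HepG2 array. FN1 was higher in HepG2 and LUM was dim in both, so that the stellate label was checked on few genes. With CM272 all 5 tested stellate and fibroblast markers were lower in LX2, by differences from -1.01 to -0.17 log2 with a median of -0.38, beside -0.02 over all genes. Of these, 1 passed limma, where 8.42% of all genes passed. At an unadjusted p under 0.05 there were 4, and the share of all genes at that threshold was not computed. The mean log2 value of the 6 with a probe set was 7.63 to 7.67 in the LX2 control arrays and 7.27 to 7.30 with CM272. The one that fell was LOX, lysyl oxidase, which cross-links collagen, at -1.01 (limma adjusted p = 0.0064). The LOX call was lost without LX2 control replicate 1 (-1.10, limma adjusted p = 0.0529) or 2 (-0.92, adjusted p = 0.0953). Of 12 endothelial markers, a cell type known to make C-type natriuretic peptide, 10 had a probe set. Of the 8 tested, 0 passed limma in LX2 with CM272 (0 at an unadjusted p under 0.05), where 8.42% of all genes did, a share that gives under 1 in a list of this size. Their mean log2 value over the 10 was 4.94 to 4.97 in the LX2 control arrays and 4.96 to 5.31 with CM272. In LX2 control 7 of the 10 exceeded 4 on both arrays (not PECAM1, EMCN or PLVAP). With CM272 7 did so too (not PECAM1, VWF or EMCN). In HepG2 6 of the 10 did so in control and 5 with CM272. The share of all genes over 4 in each group was not computed. Of 8 neuronal markers 4 were tested and 1 passed, beside the same 8.42%: SCG2 rose (0.86, limma adjusted p = 0.0162). SCG2 read 3.87 and 4.21 in LX2 control, 4.87 and 4.93 with CM272, and under 4 on every HepG2 array. Only LX2 CM272 had both arrays over the filter, so the call is on a gene tested through the group where it is high. The call was lost without LX2 control replicate 1 (0.69, adjusted p = 0.141) or 2 (1.03, adjusted p = 0.0774) and in 2 other settings. Of 8 chondrocyte markers 2 were tested and 0 passed limma, beside 8.42% of all genes that passed. Both had an unadjusted p under 0.05, with no share over all genes computed at that threshold. SOX9, a master factor of cartilage, differed by 0.59 in LX2 (limma adjusted p = 0.0524) and passed in 4 of 16 alternative settings. Among these were quantile normalization (0.77, limma adjusted p = 0.0380) and leaving out LX2 CM272 replicate 2 (0.79, adjusted p = 0.0110). The part of these markers in the NPPC difference was not tested.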

How the data were processed

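RNA of 8 samples was hybridised to 1 array each (300 ng of total RNA per sample, 200000 cells seeded per well, per the labels' protocols). The deposited table holds log2 expression values that the authors made with RMA, per the submitters' processing notes, which name no version. RMA sets probe intensities to a common distribution and compresses differences of dim genes. The medians of the deposited arrays still ran from 4.19 to 4.54, and were lower in HepG2 than in LX2. Arrays give no counts, so the number of arrays limits precision. Of 48416 probe sets, 16098 had 1 symbol, 0 had several and 32318 had none in the platform annotation. No source used here names the genome build of the array design.

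The probe set with the highest mean was kept per symbol. Genes over log2 4 in both arrays of at least 1 group were tested (12239; 2645 were too dim). In R 4.3.3, limma 3.58.1 fitted the group means of all arrays together, with moderated variance (degrees of freedom: 4 residual, 5.47 prior). Its two-sided p-values were adjusted by Benjamini-Hochberg over all tested genes, with a threshold of 0.05. The fit was tested on simulated data. An exact test of 2 arrays against 2 cannot reach 0.05. Nothing in the labels says that replicates came from separate cultures, so p-values may measure technical spread. The members and lists were chosen with earlier results of these data known.

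Named genes were NPPC, its receptors and fellow ligands, list members that passed a comparison with the 2 widest that did not, the 5 genes on either side, and the 8 highest and 3 lowest correlations. GTF2B, OASL, SCG2 and other marker genes were named after their values were seen. Promoter motifs were also chosen after the windows were seen. Promoter windows matched 5 of 6 natriuretic symbols. Figures were drawn with matplotlib 3.10.9.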

Additional observations from a re-analysis of the deposited data

How the results depend on the processing

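Alternatives were no filter, a filter at log2 6, quantile normalization, every named probe set, array weights, each line fitted alone, eBayes with trend and robust, the replicate block, and each array left out in turn. The NPPC difference in LX2 ran from 2.32 to 2.61 log2 and that between lines from -2.70 to -2.22. Left-out arrays gave -0.23 to 0.25 in HepG2 and -0.08 to 0.39 between the untreated lines. With 2 arrays a group, the shift from leaving one out follows from the gap between them and is no check of stability. Quantile normalization gave 0.46 between the untreated lines, against 0.15 on the deposited scale. Calls in the natriuretic peptide and cyclic GMP list in LX2 were 2 with all arrays, 1 with no filter, quantile normalization, array weights or the replicate block, 0 with each line fitted alone, and 0 to 5 with an array left out. For the difference between lines they were 0 to 4 with an array left out, and between the untreated lines 7 instead of 14 with the filter at log2 6, where fewer genes were tested (11 to 14 with an array left out).

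Over all genes 1031 were called in LX2, against 283 with array weights, 198 with each line fitted alone and 55 to 2496 with an array left out, the lowest without LX2 control replicate 2 and the highest without LX2 CM272 replicate 2. In HepG2 1 gene was called, against 2 with no filter, 4 with the filter at log2 6 or with trend and robust, 5 with array weights, 6 with the replicate block, 0 with each line fitted alone and 0 to 1 with an array left out. For the difference between lines 145 were called, against 79 with no filter, 371 with the filter at log2 6, 286 with trend and robust, 71 with the replicate block and 18 to 918 with an array left out. The cause was not tested.

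Same-numbered arrays of a line deviated together only weakly (r = 0.077 in LX2 and 0.069 in HepG2 across 12239 genes, which are not independent replicates). A weak r cannot tell whether same-numbered arrays shared a culture or a day, so pairing was not settled. The replicate block changed no call of NPR3, NPR1, NPPA or NPPB. Signal near the filter of log2 4 limits NPR1 in all groups, NPR3 and NPPB in HepG2, NPR3 in LX2 control (4.16 and 4.42) and NPPC outside LX2 CM272 (4.36 to 4.90). The 5.52-fold of NPPC and 1.88-fold of NPR3 in LX2 are set against such dim values, where array background can make a fold too small.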

Other observations

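A second measure of likeness, the root mean square difference of values centred per gene, also weighs the size of the step. By it the genes nearest to NPPC were OASL, an interferon-induced antiviral protein (0.30 log2), DLL4, a Notch ligand (0.33), GTF2B (0.33), SLC7A11-AS1 (0.34), LOC339166 (0.36), RNF122, a ubiquitin ligase (0.37), LSMEM1 (0.38) and BAIAP2, an actin regulator (0.38). Of these 8, 0 were among the 8 highest correlations. In HepG2 the treated arrays of DLL4 lay above its controls, with a difference that did not pass (0.58, limma adjusted p = 0.444). The share of all genes separated in this way in HepG2 was not computed. DLL4 and NPPC were not compared in a test.

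Of the 8 genes with the highest correlation to NPPC 5 had a RefSeq promoter window. Their windows held 5 to 32 CG dinucleotides, beside 34 for NPPC and a median of 14 over all windows.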
